A study of Homo sapiens with 4 samples.

Results

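The effect of an siRNA against CDC73 on gene expression was compared between 2 cell densities in HEK293 cells, a cell line established from human embryonic kidney. The 4 groups were confluent cells with hCdc73 siRNA, confluent cells with control siRNA, sparse cells with hCdc73 siRNA and sparse cells with control siRNA, with 1 array in each, and all 4 arrays of the study were used. Every group received 100 pmol of siRNA and was moved to a new dish 24 hours later, to a 35 mm dish for the confluent cells and to a 100 mm dish for the sparse ones, with harvest after a further 24 hours. For each gene the siRNA effect was the log2 level with CDC73 siRNA minus that with control siRNA at 1 density, and the difference of effects was the effect in confluent cells minus the effect in sparse cells. A positive difference therefore means that CDC73 siRNA left a gene relatively higher in confluent cells than in sparse cells. It is equally the effect of confluence under CDC73 siRNA minus the effect of confluence under control siRNA. Levels are log2 intensities after background correction and quantile normalization. A gene counted as detected on an array when its signal exceeded that of all but 0.01 of a negative panel, the probes of olfactory receptor genes. Of 18474 genes with a probe of 1 gene symbol outside that panel, 9047 were detected on all 4 arrays and are described. With 4 arrays for 4 groups no residual degree of freedom was left, so differences are given by size and carry no p-value.

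CDC73 encodes parafibromin. This protein belongs to the PAF1 complex, which accompanies elongating RNA polymerase II through chromatin and is needed for several histone modifications of transcribed genes. CDC73 is known as a tumour suppressor of the parathyroid, and parafibromin has been described as a regulator of cyclin D1 and MYC and as a partner of beta-catenin. Crowding of cells acts on transcription through several routes, of which the best known is the Hippo kinase cascade: in dense cultures it keeps the co-activators YAP and TAZ out of the nucleus, and genes driven by YAP, TAZ and the TEAD factors are transcribed less. A gene with a difference of effects near 0 responded to the siRNA by a like ratio at both densities.

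The check of the target itself was not possible. The CDC73 probe lay under the detection limit on every array, with signals of 90.0 in confluent cells with CDC73 siRNA, 98.3 in confluent controls, 83.5 in sparse cells with CDC73 siRNA and 72.3 in sparse controls, so the size of the knockdown at either density is not known from these data. Of 14 markers of the line, 10 were detected on all 4 arrays, while all 8 markers of mature kidney or liver cells were under the limit everywhere. Of the fibroblast, blood and endothelium markers, 3 of 10, 2 of 8 and 1 of 7 were detected on all arrays. Total signal was lowest in confluent cells with CDC73 siRNA, at 22948100, and lay between 25283800 and 28273400 on the other arrays. The share of probes detected was 28.0% on the control array of sparse cells and 30.3% to 30.5% on the others. Whether each dish had a transfection of its own is not stated in the labels. Levels come from RNA of whole dishes, so fewer cells with a transcript and less transcript per cell cannot be told apart.

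The siRNA effect was more positive in confluent cells by at least 2-fold for 209 genes, which is 2.31% of the genes measured, and more negative by at least 2-fold for 288 genes, or 3.18%. The balance between the directions depended on how the arrays were scaled: it was 15 against 1479 when arrays were scaled to the median of all probes, which moved the median gene by -0.43 on the log2 scale, and 314 against 206 when they were scaled to the median of the detected genes. The difference of effects had a median of -0.04 over all genes and an SD of 0.52, and 90% of genes lay between -0.88 and 0.81. It was above 0 in 4275 genes and below 0 in 4772. Past 3-fold were 10 genes in the positive direction and 14 in the negative one. Past 4-fold were 4 genes, KLF5, EGR1, ANKRD1 and EAPP, all in the positive direction. Just inside and outside the 2-fold limit the values were 1.0002 and 0.998 on the positive side, and -1.002 and -0.99999 on the negative side. The siRNA effects themselves spread more widely in confluent cells, with an SD of 0.50, than in sparse cells, with an SD of 0.41. At least 2-fold effects of the siRNA were seen for 154 higher and 275 lower genes in confluent cells, and for 88 higher and 135 lower genes in sparse cells. Whether these spreads differ beyond the error of single arrays was not tested.

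The one measure of error within the arrays came from genes with more than 1 detected probe. In 1879 such genes the difference of effects had an SD between probes of 0.375, and the correlation of the probes across genes was 0.47, where genes are not independent replicates. This error holds noise of the probes and of alternative transcripts, and none of the variation between dishes. Of the 209 positive genes, 42 had another detected probe, which gave the same sign in 32 and passed 2-fold in 9, with a median of 0.53. Of the 288 negative genes, 36 had another detected probe, which gave the same sign in 31 and passed 2-fold in 1, with a median of -0.52. The other probe thus pointed the same way for most genes, at a smaller size. Since the genes were chosen by their brightest probe, a smaller size on the other follows from the choice. Both probes were read on the same arrays, and the share of like signs over all 1879 genes is not given. When genes were split into 4 equal classes by mean level, positive differences past 2-fold were 3.36% of the dimmest class and 1.02% of the brightest, and negative ones 4.55% and 3.05%.

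Most of these genes did not fall into a simple class of responding at 1 density. Among the positive genes, 45 had a siRNA effect past 2-fold in confluent cells and under 0.5 in size in sparse cells, and 10 had the reverse. Another 42 had effects of opposite sign of at least 0.5 each, 6 had effects of the same sign with unequal size, and 106 lay between these classes. Among the negative genes, 72 were seen in confluent cells only, 16 in sparse cells only, 41 with opposite signs and 6 with the same sign, and 153 lay between. No gene had effects of at least 2-fold in opposite directions at the 2 densities. The median positive gene had an effect of 0.80 in confluent cells and -0.41 in sparse cells, and the median negative gene -0.78 in confluent cells and 0.39 in sparse cells. Since the members were chosen by the difference of these effects, the opposite signs are a description of the choice and not support for it.

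**Figure D1:**
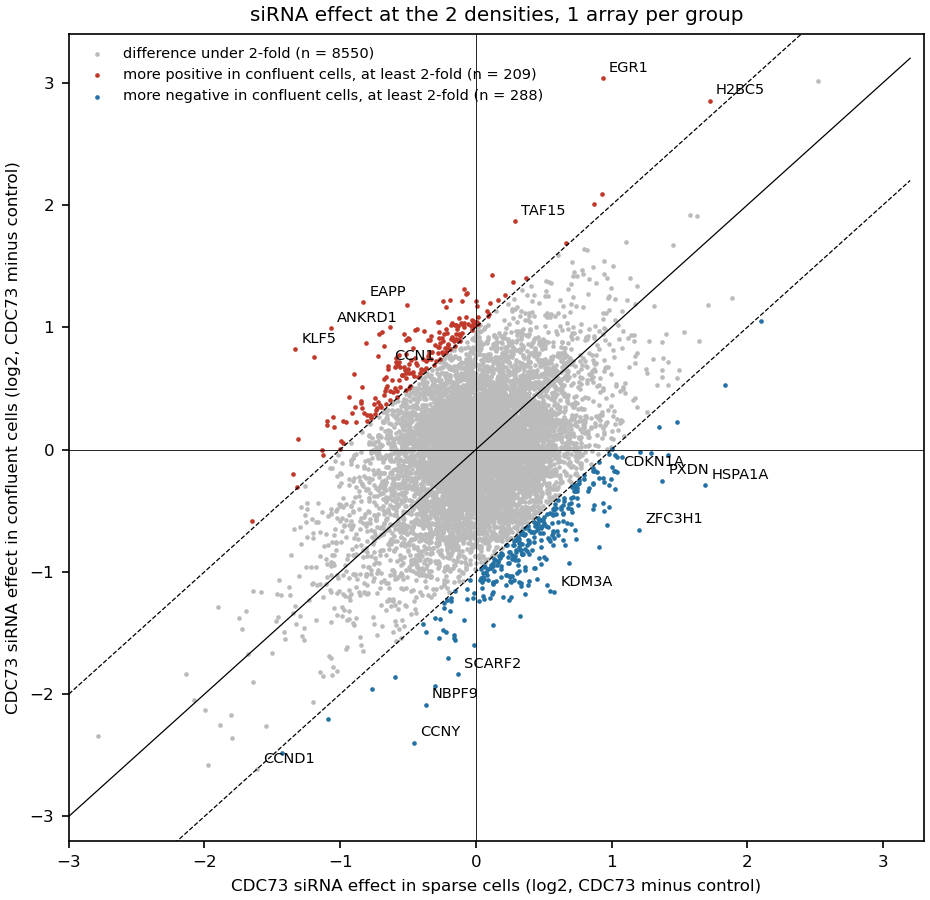
Effect of CDC73 siRNA in confluent cells against its effect in sparse cells, each as a log2 difference from control siRNA, for the 9047 genes detected on all 4 arrays. Genes off the diagonal by more than 1, which are 209 on the positive side and 288 on the negative side, are coloured, dashed lines mark the limits, and each point is 1 gene measured on single arrays.

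The same differences can be read as a pair of responses to confluence, one under each siRNA. With CDC73 siRNA, 66 of the 209 positive genes were at least 2-fold higher in confluent than in sparse cells and 1 was lower, while with control siRNA 2 were higher and 22 lower. Of the 288 negative genes, 4 were at least 2-fold higher and 85 lower under confluence with CDC73 siRNA, against 36 higher and 1 lower with control siRNA. The 2 responses to confluence had opposite signs in 160 of the positive genes and 220 of the negative genes, against 3400 of all 9047. Since the genes were chosen by the difference of these 2 responses, their opposite signs and unequal counts describe the choice and are not support for it. For comparison, among the 9047 genes 286 were higher by 2-fold or more and 292 lower in confluent cells with CDC73 siRNA, against 234 higher and 125 lower with control siRNA.

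ANKRD1, CCN1 and CCN2, standard target genes of YAP and TAZ, were lower in confluent than in sparse cells with either siRNA. The gap was narrower with CDC73 siRNA for ANKRD1 and CCN1, and not for CCN2. ANKRD1, a muscle ankyrin repeat protein, had a log2 level of 8.46 in confluent cells with CDC73 siRNA, against 7.47 in confluent controls, and 9.34 in sparse cells with CDC73 siRNA, against 10.41 in sparse controls. Its level in sparse controls was the highest and in confluent controls the lowest, with both CDC73 siRNA arrays between them. The effect of confluence was -0.88 with CDC73 siRNA and -2.95 with control siRNA, a difference of 2.06 (between 1.56 and 2.06 over 10 settings of the background, scaling, detection and probe choice, the reported one included). CCN1, the matricellular protein also called CYR61, followed the same order, at 8.98 in confluent cells with CDC73 siRNA, 8.30 in confluent controls, 9.94 in sparse cells with CDC73 siRNA and 10.59 in sparse controls, a difference of 1.33. It missed 2-fold in 1 of the 10 settings. DLC1 had a difference of 1.10 but passed 2-fold in only 5 of the 10 settings. In confluent cells before processing, the ANKRD1 signal was 341 with CDC73 siRNA and 284 with control siRNA. The corresponding signals were 466 and 452 for CCN1, and 159 and 157 for DLC1. F3, tissue factor, had a difference of 0.86. CCN2, or CTGF, which did not share this pattern, is named after its values were seen. Its level was 9.06 in confluent cells with CDC73 siRNA, 9.47 in confluent controls, 11.95 in sparse cells with CDC73 siRNA and 11.96 in sparse controls, so that the effect of confluence was -2.89 with CDC73 siRNA and -2.48 with control siRNA and the difference was -0.40. Of 17 measured genes of the YAP and TAZ list, 3 passed 2-fold in the positive direction and 0 in the negative one, 10 lay above 0 and 7 below, and the median was 0.11 against -0.04 over all genes. FOXF2, at -0.64, and GADD45B, at -0.67, lay lowest.

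The promoters of ANKRD1 and CCN2 are shown because both carry the TEAD motif while their differences of effects had opposite signs. They are the 250 bases before the annotated start in RefSeq, GRCh38.p14, minus strand of chr10:90921088-90921337 for ANKRD1 and of chr6:131951373-131951622 for CCN2, 5′ to 3′, with the motif GGAATG in capitals.
ANKRD1: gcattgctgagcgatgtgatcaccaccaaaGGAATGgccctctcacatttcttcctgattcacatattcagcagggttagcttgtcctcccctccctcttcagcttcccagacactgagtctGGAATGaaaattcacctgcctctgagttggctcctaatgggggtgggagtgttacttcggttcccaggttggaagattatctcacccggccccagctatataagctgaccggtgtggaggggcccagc
CCN2: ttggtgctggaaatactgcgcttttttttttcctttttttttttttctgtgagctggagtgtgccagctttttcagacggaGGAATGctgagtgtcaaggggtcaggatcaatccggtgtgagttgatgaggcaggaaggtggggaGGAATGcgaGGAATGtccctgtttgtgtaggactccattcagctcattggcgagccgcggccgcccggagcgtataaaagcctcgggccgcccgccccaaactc
The motif was sought on both strands, so CATTCC counts too. In ANKRD1 it began 220 and 128 bases before the start, and in CCN2 169, 104 and 95 bases before it. It was found in 4 of 11 promoters of measured list members with an entry, those of ANKRD1, CCN2, FOXF2 and PTPN14, with differences of 2.06, -0.40, -0.64 and 0.11, and in 10.1% of the promoters of all 15843 protein-coding genes with an entry. Among the genes past 2-fold it was in 16 of 171 promoters on the positive side (9.36%) and in 18 of 232 on the negative side (7.76%). The share among genes detected on all 4 arrays was 9.41%. A match is a match of letters and says nothing of binding.

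The components of the Hippo pathway itself stayed within 2-fold. Of 14 measured members 11 lay above 0 and 3 below, with a median of 0.17, which was 0.06 over all 25 members with a probe. YAP1, the co-activator, had the highest value at 0.57, with levels of 11.12 in confluent cells with CDC73 siRNA, 10.58 in confluent controls, 10.13 in sparse cells with CDC73 siRNA and 10.16 in sparse controls. Before processing, the YAP1 signal in confluent cells was 1830 with CDC73 siRNA and 1852 with control siRNA. STK3, a kinase upstream of YAP1, was at 0.53, the scaffold SAV1 at 0.43, and VGLL4, which competes with YAP for the TEAD factors, was lowest at -0.69.

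EGR1, a zinc finger factor of the immediate early response to growth factors and stress, had the second largest difference of all genes. Its level was 10.66 in confluent cells with CDC73 siRNA, 7.62 in confluent controls, 8.88 in sparse cells with CDC73 siRNA and 7.95 in sparse controls. The siRNA effect was 3.04 in confluent cells and 0.93 in sparse cells, so the gene was higher with CDC73 siRNA at both densities and the difference was one of size, 2.10 (1.53 to 2.10 over the settings). Of 16 immediate early genes measured, EGR1 alone passed 2-fold in the positive direction and MYC alone in the negative one, and the median was -0.06. JUN reached 0.91 and IER3 0.83, while PPP1R15A was at -0.70 and ZFP36 at -0.57. MYC, the growth-promoting transcription factor, had 7.70 in confluent cells with CDC73 siRNA, 8.75 in confluent controls, 9.07 in sparse cells with CDC73 siRNA and 8.88 in sparse controls, a difference of -1.23, and its other probe gave -0.76. Only the first of these arrays stood low. The feedback genes of the ERK pathway, through which EGR1 is commonly induced, were divided: SPRY1, an inhibitor of receptor signalling, was at -1.10 and the receptor EPHA4 at -1.46, while IER3 and EPHA2 were at 0.83 and 0.51, with a median of 0.08 over 10 genes.

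The EGR1 promoter is shown for the CArG box, the site of serum response factor through which the gene is known to respond to growth factors. It is the 250 bases before the start in RefSeq, GRCh38.p14, plus strand of chr5:138465229-138465478, 5′ to 3′, with the CArG boxes in capitals.
EGR1: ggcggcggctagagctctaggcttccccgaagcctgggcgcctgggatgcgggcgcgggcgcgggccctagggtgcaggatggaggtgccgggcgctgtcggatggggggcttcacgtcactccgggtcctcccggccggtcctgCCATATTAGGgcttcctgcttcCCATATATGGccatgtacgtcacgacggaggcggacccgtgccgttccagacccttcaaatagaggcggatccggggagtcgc
The 2 boxes began 105 and 83 bases before the start. Both strands were searched. The box was found in 2 of 13 promoters of measured immediate early genes, those of EGR1 and SRF, of which SRF had a difference of 0.20, and in 1.14% of all promoters. Its share was 0.99% among genes detected on all 4 arrays. Past 2-fold it was in 5 of 171 promoters on the positive side (2.92%) and in 4 of 232 on the negative side (1.72%).

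KLF5, a zinc finger factor of proliferating epithelia, had the largest difference of any gene. Its level was 7.60 in confluent cells with CDC73 siRNA, 6.78 in confluent controls, 6.02 in sparse cells with CDC73 siRNA and 7.35 in sparse controls. The siRNA effect was 0.82 in confluent cells and -1.33 in sparse cells, a difference of 2.15 (1.36 to 2.15 over the settings). EAPP, a phosphoprotein that binds E2F factors, showed the same crossing, at 7.19 in confluent cells with CDC73 siRNA, 5.99 in confluent controls, 5.67 in sparse cells with CDC73 siRNA and 6.50 in sparse controls, a difference of 2.03. It was a dim gene, and its difference was 1.02 in the lowest of the settings. The pseudogene ANP32AP1 followed at 1.95. Its parent gene ANP32A, an acidic nuclear phosphoprotein, was at 1.22, and the probes of such near copies may share signal.

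The other large positive differences, apart from TAF15, were of moderate effects in opposite directions. TXNL1, a thioredoxin-like protein of the proteasome, stood at 1.69 with effects of 1.18 in confluent cells and -0.51 in sparse cells. HMGN3, a nucleosome-binding protein, had 1.68, BEND4 1.66, SNRPE, a core protein of the splicing particles, 1.66, and ZNF695 1.64. KGD4, a subunit of 2-oxoglutarate dehydrogenase, had 1.53, MIEN1 1.52, the zinc finger factor ZNF521 1.48 and PLAGL1, an imprinted zinc finger factor, 1.47. These 9 genes had siRNA effects between 0.62 and 1.18 in confluent cells and between -0.90 and -0.51 in sparse cells. None had another detected probe. Several were dim: PLAGL1 passed 2-fold in 7 of the 10 settings, MIEN1 in 8, and BEND4 and ZNF521 in 9. Before processing, the MIEN1 signal in confluent cells was 178 with CDC73 siRNA and 179 with control siRNA.

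TAF15, an RNA-binding protein of the FET family, had a siRNA effect of 1.87 in confluent cells and 0.29 in sparse cells. Its level was 11.88 in confluent cells with CDC73 siRNA, 10.01 in confluent controls, 10.36 in sparse cells with CDC73 siRNA and 10.07 in sparse controls. The value in confluent cells with CDC73 siRNA stood alone above the other 3, the difference was 1.58, and the other TAF15 probe gave 1.73. The same class held CYP3A5, a drug-metabolising cytochrome, with levels of 9.66 in confluent cells with CDC73 siRNA, 8.50 in confluent controls, 6.09 in sparse cells with CDC73 siRNA and 6.32 in sparse controls. The effect of confluence on CYP3A5 was 3.57 with CDC73 siRNA and 2.18 with control siRNA, and the difference 1.39. ZSWIM9 at 1.46, CHMP4C, a membrane-remodelling subunit, at 1.41 and HNMT, the histamine methyltransferase, at 1.40 were the next largest of its 45 genes, and a second HNMT probe gave 0.80. In the reverse class, DXO, an RNA decapping enzyme, had an effect of 0.08 in confluent cells and -1.31 in sparse cells, a difference of 1.39. FCHO1 at 1.33, the aldo-keto reductase AKR1C2 at 1.33 and the thioesterase ACOT8 at 1.30 were similar.

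Genes affected in the same direction at both densities, but more in confluent cells, included H2BC5, a histone H2B gene, at 10.33 in confluent cells with CDC73 siRNA, 7.47 in confluent controls, 9.16 in sparse cells with CDC73 siRNA and 7.43 in sparse controls. Its effects were 2.85 and 1.72, the difference was 1.13 and its other probe gave 1.52, although it missed 2-fold in 1 of the 10 settings. SUGCT, a CoA transferase, had effects of 2.09 and 0.93, and the non-coding host gene MIR99AHG 2.01 and 0.87. The difference passed 2-fold in 9 of the 10 settings for SUGCT and in 6 for MIR99AHG. ADD3, a protein of the membrane skeleton, was instead affected more in sparse cells on its brightest probe, with effects of -0.58 in confluent cells and -1.65 in sparse cells. Its other probes gave differences of -0.41 and -0.27 against 1.07 for the brightest probe, so its direction is not settled.

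**Figure D2:**
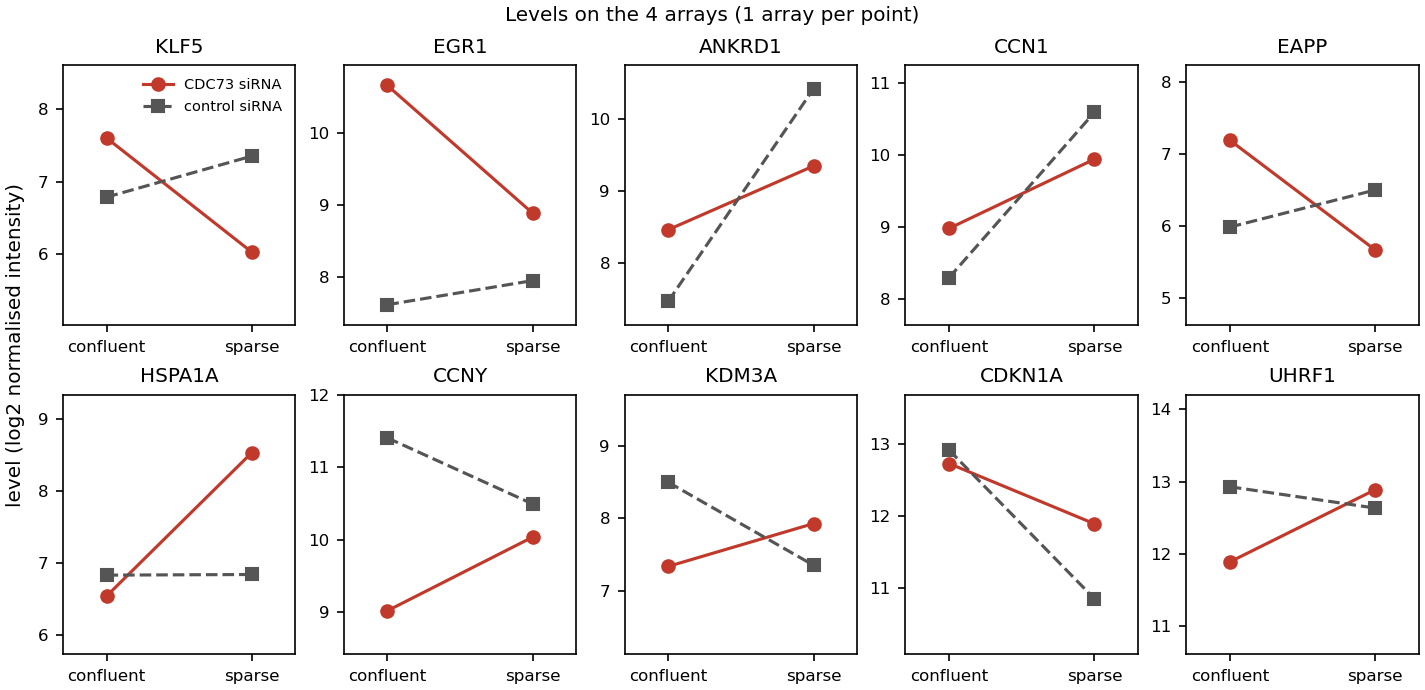
Log2 level on each of the 4 arrays for 5 genes with positive differences of siRNA effects, upper row, and 5 with negative ones, lower row, on a scale set for each gene. Each point is 1 array; lines join the 2 densities of 1 siRNA, and lines that are not parallel show a difference of effects, as for KLF5 at 2.15 and HSPA1A at -1.98.

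The largest negative difference was that of HSPA1A, the stress-inducible HSP70 chaperone. Its probe gave 6.54 in confluent cells with CDC73 siRNA, 6.83 in confluent controls, 8.53 in sparse cells with CDC73 siRNA and 6.84 in sparse controls. The array of sparse cells with CDC73 siRNA stood alone above the other 3, and the difference was -1.98 (-2.46 to -1.46 over the settings). HSPA1B, whose transcript is nearly identical and whose signal the probes may not separate, had 13.14 in confluent cells with CDC73 siRNA, 13.63 in confluent controls, 14.97 in sparse cells with CDC73 siRNA and 14.40 in sparse controls, a difference of -1.05. HSPA8, the constitutive HSP70 of the cytosol, was at -0.82 on its brightest probe and -0.84 on the other. Of 21 measured heat shock genes no other passed 2-fold. HSP90AB1 was at -0.39, HSPH1 at -0.37, HSP90AA1 at -0.31 and the co-chaperone DNAJB1 at -0.05, while DNAJB4 was at 0.63, and the median was -0.03, close to that of all genes.

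The HSPA1A promoter is shown for the heat shock element, the site of heat shock factor. It is the 250 bases before the start in RefSeq, GRCh38.p14, plus strand of chr6:31815293-31815542, 5′ to 3′, with the element GAANNTTC, where N is any base, in capitals.
HSPA1A: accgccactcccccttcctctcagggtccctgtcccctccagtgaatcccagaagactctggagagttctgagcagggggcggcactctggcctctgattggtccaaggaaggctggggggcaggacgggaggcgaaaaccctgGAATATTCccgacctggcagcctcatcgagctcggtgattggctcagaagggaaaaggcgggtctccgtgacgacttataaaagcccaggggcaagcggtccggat
The element began 106 bases before the start. It reads the same on both strands and can share its letters GAA with the TEAD motif. It was found in 9 of 20 promoters of measured heat shock genes, in 4.81% of all promoters and in 4.08% of those of genes detected on all 4 arrays. Among the genes past 2-fold the element was in 11 of 171 promoters on the positive side (6.43%) and in 11 of 232 on the negative side (4.74%). Apart from HSPA1A, HSPA1B and HSPA8, the 6 heat shock genes with it had differences between -0.03 and 0.21, among them HSPB1 at 0.07 and DNAJA1 at 0.11.

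CCNY, a membrane-bound cyclin, was lower with CDC73 siRNA mainly in confluent cells. Its level was 9.01 in confluent cells with CDC73 siRNA, 11.41 in confluent controls, 10.03 in sparse cells with CDC73 siRNA and 10.49 in sparse controls. The effects were -2.40 and -0.46 and the difference -1.94, while its other probe gave -0.75. NBPF9 and NBPF10, of a multi-copy gene family whose members share sequence, had -1.72 and -1.64, but another NBPF10 probe gave 0.04. SCARF2, a scavenger receptor, was low in confluent cells with CDC73 siRNA alone, at 5.92, against 7.76 in confluent controls, 7.65 in sparse cells with CDC73 siRNA and 7.79 in sparse controls. IPO5, a nuclear import receptor, had 6.77 in confluent cells with CDC73 siRNA, 8.13 in confluent controls, 8.06 in sparse cells with CDC73 siRNA and 7.74 in sparse controls, a difference of -1.68.

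Other negative genes crossed over, lower with CDC73 siRNA in confluent cells and higher in sparse cells. ZFC3H1, which links polyadenylated RNA to the nuclear exosome, had effects of -0.65 in confluent cells and 1.20 in sparse cells, a difference of -1.86. KDM3A, a demethylase of histone H3 lysine 9, had effects of -1.17 and 0.58, a difference of -1.74. GEMIN4, a member of the SMN complex that assembles splicing particles, had -1.10 and 0.53, and DHX38, a splicing helicase, -0.92 and 0.69. SLC45A4 with a difference of -1.71, ABHD15 with -1.70 and PAMR1 with -1.58 had the same signs. SUSD2, with effects of -1.60 in confluent cells and -0.02 in sparse cells, belonged with the genes that responded in confluent cells.

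A smaller set was higher with CDC73 siRNA in sparse cells with little effect in confluent cells. PXDN, a peroxidase of the extracellular matrix, had -0.25 in confluent cells and 1.37 in sparse cells. Its level was 6.37 in sparse controls and between 7.75 and 8.17 on the other arrays. The PXDN difference of -1.63 came to -0.63 in the setting where it was smallest. SLIT2, a secreted guidance cue, had levels of 11.07 in confluent cells with CDC73 siRNA, 11.11 in confluent controls, 11.31 in sparse cells with CDC73 siRNA and 9.89 in sparse controls, so that the sparse control array alone stood low, and a difference of -1.46. The Notch ligand DLL1 at -1.35 and TRAPPC9, of a vesicle tethering complex, at -1.32 were similar. TRAPPC9 was also lowest in sparse controls, at 6.14 against 7.10 to 7.44 elsewhere, and passed 2-fold in 8 of the 10 settings. Whether a single low control array accounts for these values was not tested. Genes with unequal effects of the same sign included TNFRSF14, a receptor of the TNF family, with 0.53 in confluent cells and 1.84 in sparse cells, and IDH2, the mitochondrial isocitrate dehydrogenase, with -2.21 and -1.09. The ATPase TRIP13 had -2.48 and -1.43, ANO6, a membrane scramblase, -1.86 and -0.59, and the motor protein KIF1A -1.96 and -0.77.

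Gene groups were described by counts and medians against the whole table, in which 2.31% of genes were positive and 3.18% negative past 2-fold. Over all 9047 genes the median was -0.04, with 4275 above 0 and 4772 below, or 47.3% above. Scaling to the median of all probes moved the lists together with the median gene, so list medians are read against that of all genes. Replication genes had the lowest median of the 31 pathway lists. Of 33 measured G1/S and replication genes 4 passed 2-fold in the negative direction and 0 in the positive one, 25 lay below 0 and 8 above, and the median was -0.55. UHRF1, which maintains DNA methylation at replication, had 11.89 in confluent cells with CDC73 siRNA, 12.93 in confluent controls, 12.89 in sparse cells with CDC73 siRNA and 12.63 in sparse controls, a difference of -1.30. RRM2, a subunit of ribonucleotide reductase, was at -1.26, and the helicase subunits MCM2 and MCM4 were at -1.16 and -1.17, although another MCM4 probe gave 0.53. Effects of these 4 genes lay between -1.04 and -0.60 in confluent cells and between 0.24 and 0.56 in sparse cells. The list was not uniform: PCNA stood at -0.01, and GINS4 and MCM10 at 0.47 and 0.46.

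The G2/M genes also had a median below that of all genes, with 3 of 36 at least 2-fold negative, 0 positive, 23 below 0 and a median of -0.36. The mitotic motor KIF20A was at -1.28, the spindle protein PRC1 at -1.07 and TRIP13 at -1.06, whereas the small cell cycle proteins CKS1B and CKS2 were at 0.97 and 0.90, CENPA at 0.91 and CCNB1 at 0.78. With the mean of a gene's probes the G2/M median was -0.18. G1 cyclins, their kinases and inhibitors had a median of -0.36 over 18 genes, with 11 below 0. CCND1, or cyclin D1, had 9.57 in confluent cells with CDC73 siRNA, 12.19 in confluent controls, 10.998 in sparse cells with CDC73 siRNA and 12.61 in sparse controls. It was lower with CDC73 siRNA at both densities, with effects of -2.62 in confluent cells and -1.62 in sparse cells, and its difference lay just short of 2-fold. E2F2 was at -0.98, CCND3 at -0.91 and CCND2 at -0.87, while the kinase inhibitors CDKN2B, CDKN1C and CDKN1B were at 0.61, 0.41 and 0.40.

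CDKN1A, the p21 inhibitor and a target of p53, had the opposite sign to those inhibitors. Its level was 12.73 in confluent cells with CDC73 siRNA, 12.92 in confluent controls, 11.90 in sparse cells with CDC73 siRNA and 10.86 in sparse controls. The siRNA effect was -0.19 in confluent cells and 1.04 in sparse cells, and the effect of confluence was 0.83 with CDC73 siRNA and 2.06 with control siRNA. Of 20 measured p53 targets 4 were at least 2-fold negative and 0 positive, with a median of -0.22: CDKN1A at -1.23, the stress protein SESN1 at -1.19, the death receptor TNFRSF10B at -1.14 and the nuclease AEN at -1.02. The 8 targets that lay above 0 were led by BAX at 0.59, although its other probe gave -0.09, and TP53I3 at 0.49, so the list was split. In the BCL2 family, BCL2 at 1.20 and the pro-apoptotic BIK at 1.08 were positive past 2-fold and the median of 14 genes was 0.02. BCL2 and BIK were dim and each passed 2-fold in 5 of the 10 settings, with lowest values of 0.64 and 0.58. In confluent cells before processing, BCL2 had signals of 145 with CDC73 siRNA and 140 with control siRNA, and BIK 165 and 176.

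Genes of glycolysis and the hypoxia response were negative almost throughout, with 28 of 32 below 0 and a median of -0.30. In all 4 passed 2-fold: KDM3A at -1.74, PFKFB4, a bifunctional enzyme that sets the rate of glycolysis, at -1.27, TXNIP, which restrains glucose uptake, at -1.16, and the hexokinase HK1 at -1.07. TXNIP had 9.23 in confluent cells with CDC73 siRNA, 9.05 in confluent controls, 8.03 in sparse cells with CDC73 siRNA and 6.68 in sparse controls, and was the lowest on the sparse control array. PGK1 at -0.89, ENO1 at -0.87 and the glucose transporter SLC2A1 at -0.84 followed, VEGFA was at -0.13, and BNIP3 was the highest at 0.57. Lysosome and autophagy genes had a median of -0.24 over 24 members, with LAMP1 at -1.06 and GLB1 at -1.03 past 2-fold and NPC1 just short of it.

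The lists of several developmental pathways also had a median difference of effects below that of all genes, which does not describe the level of a pathway. Notch pathway genes had a median of -0.32, with 12 of 18 below 0 and 2 past 2-fold, the ligand DLL1 at -1.35 and the receptor NOTCH1 at -1.19. The targets HEYL and HES5 were at -0.88 and -0.86, while HES1 was at 0.30 and RBPJ, the DNA-binding partner of Notch, at 0.79. Targets of Wnt and beta-catenin had a median of -0.44 over 14 genes, of which 11 lay below 0 and MYC alone passed 2-fold. CCND1, just short of 2-fold, and DKK1 at -0.70 came next, and AXIN2, the most general target of the pathway, was at -0.17. The Wnt median was -0.16 over 18 genes detected on at least 1 array, -0.15 over all 23 and -0.25 with the mean of a gene's probes, and the Notch median was -0.10 over all 25 genes with a probe. The Hedgehog list had a median of -0.46 over 9 genes, with GLI3 at -0.98 and SFRP1 at -0.89 lowest, GLI1, the usual readout, at 0.64, and BCL2 at 1.20 the 1 gene past 2-fold. Adhesion and junction genes had a median of -0.27 over 22, with JUP, or plakoglobin, at -1.23, desmoplakin DSP at -1.09 and the cadherin CDH3 at -1.07 past 2-fold, and the gap junction protein GJA1 highest at 0.72. With no detection filter the Hedgehog median was -0.17 over 16 genes and the adhesion median -0.10 over 39.

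In the other direction, the housekeeping machines of protein synthesis, breakdown and respiration had small positive differences in most members. Of 42 genes of oxidative phosphorylation 31 lay above 0 with a median of 0.29, and none passed 2-fold. NDUFB3, a complex I subunit, was at 0.83, SDHC, of complex II, at 0.78 and 1.35 on its 2 probes, and ATP5F1B, the catalytic beta subunit of ATP synthase, lowest at -0.62. Of 30 proteasome genes 25 lay above 0, with a median of 0.28, PSMA3 at 0.84 and PSMD2 lowest at -0.71. Of 67 cytosolic ribosomal protein genes 54 lay above 0, with a median of 0.20. RPL7A alone passed 2-fold at 1.20, with 11.45 in confluent cells with CDC73 siRNA, 10.42 in confluent controls, 10.42 in sparse cells with CDC73 siRNA and 10.59 in sparse controls, and RPL22 was lowest at -0.67. Replication-dependent histone genes had a median of 0.29 over 13, with H2BC5 at 1.13 past 2-fold and H4C12 lowest at -0.59. The histone median was 0.19 over the 21 genes detected on at least 1 array and 0.03 over all 50 with a probe. It was -0.09 when arrays were scaled to the median of all probes, against -0.47 for all genes in that setting, which also put oxidative phosphorylation at 0.14 and the proteasome at 0.08.

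Among stress genes the responses were uneven. DDIT3, the CHOP factor of the unfolded protein and amino acid responses, had 9.54 in confluent cells with CDC73 siRNA, 8.27 in confluent controls, 8.04 in sparse cells with CDC73 siRNA and 8.11 in sparse controls, so that the first array stood alone, and a difference of 1.34. DDIT3 was the 1 ATF4 target positive past 2-fold, with VLDLR at -1.16, TRIB3 at -0.98 and the serine synthesis enzyme PHGDH at -0.80, and a median of -0.07 over 23. In the unfolded protein response DNAJB9 at 1.03, MANF at 0.93 and SDF2L1 at 0.89 were high, EDEM1 at -0.76 and PDIA4 at -0.74 were low, and the main chaperone HSPA5 was at 0.23, with a median of 0.17 over 20 and -0.02 over all 25 genes with a probe. In confluent cells before processing, DNAJB9 had signals of 426 with CDC73 siRNA and 422 with control siRNA, and MANF 9147 and 4727.

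Smooth muscle and contractile genes had a median of 0.01 over 16. They held TPM1, a tropomyosin, at 1.24 with 1.06 on its other probe, and ACTA2, smooth muscle actin, at -1.05. ACTA2 was higher with CDC73 siRNA at both densities, with 13.20 in confluent cells with CDC73 siRNA, 12.14 in confluent controls, 12.14 in sparse cells with CDC73 siRNA and 10.03 in sparse controls. The remaining lists had medians of -0.14 for 17 NRF2 targets, with AKR1C2 past 2-fold, -0.09 for 13 neuronal genes, -0.05 for 12 targets of TGF-beta and BMP, -0.04 for 31 ribosome biogenesis genes, with BOP1 at -1.06, 0.05 for 20 interferon response genes, 0.06 for 18 cholesterol synthesis genes and 0.14 for 8 cilium genes, with the factor RFX3 at 1.08. The 5 measured subunits of the PAF1 complex other than CDC73 lay between -0.12 and 0.14, with LEO1 highest and SKIC8 lowest. The HEK293 marker list had a median of -0.05 over 10, with LHX1 at -1.04. The markers of other cells that were measured lay between -0.33 for CD14 and 0.80 for PDGFRA, and the summed signal of the 10 fibroblast markers was 1398 in confluent cells with CDC73 siRNA, 1468 in confluent controls, 1147 in sparse cells with CDC73 siRNA and 1187 in sparse controls.

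Over the 10 settings, 11 of the 31 pathway lists had a median above that of all genes each time and 11 below it each time, and 9 fell on both sides. Those always above were the histone, proteasome, oxidative phosphorylation, ribosomal protein, YAP and TAZ, Hippo, unfolded protein, cholesterol, interferon, cilium and BCL2 lists. Those always below were the G1/S, G2/M, G1 cyclin, glycolysis, Wnt, Notch, Hedgehog, adhesion, lysosome, p53 and ATF4 lists. The margins were unequal. At its smallest the median lay 0.008 above that of all genes for unfolded protein, 0.011 for interferon and 0.019 for cholesterol, against 0.28 for the proteasome. Among those below, the smallest margin was -0.016 for ATF4 and -0.024 for p53, against -0.29 for G1/S. The settings share the same 4 arrays and so do not measure variation between cultures.

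**Figure D3:**
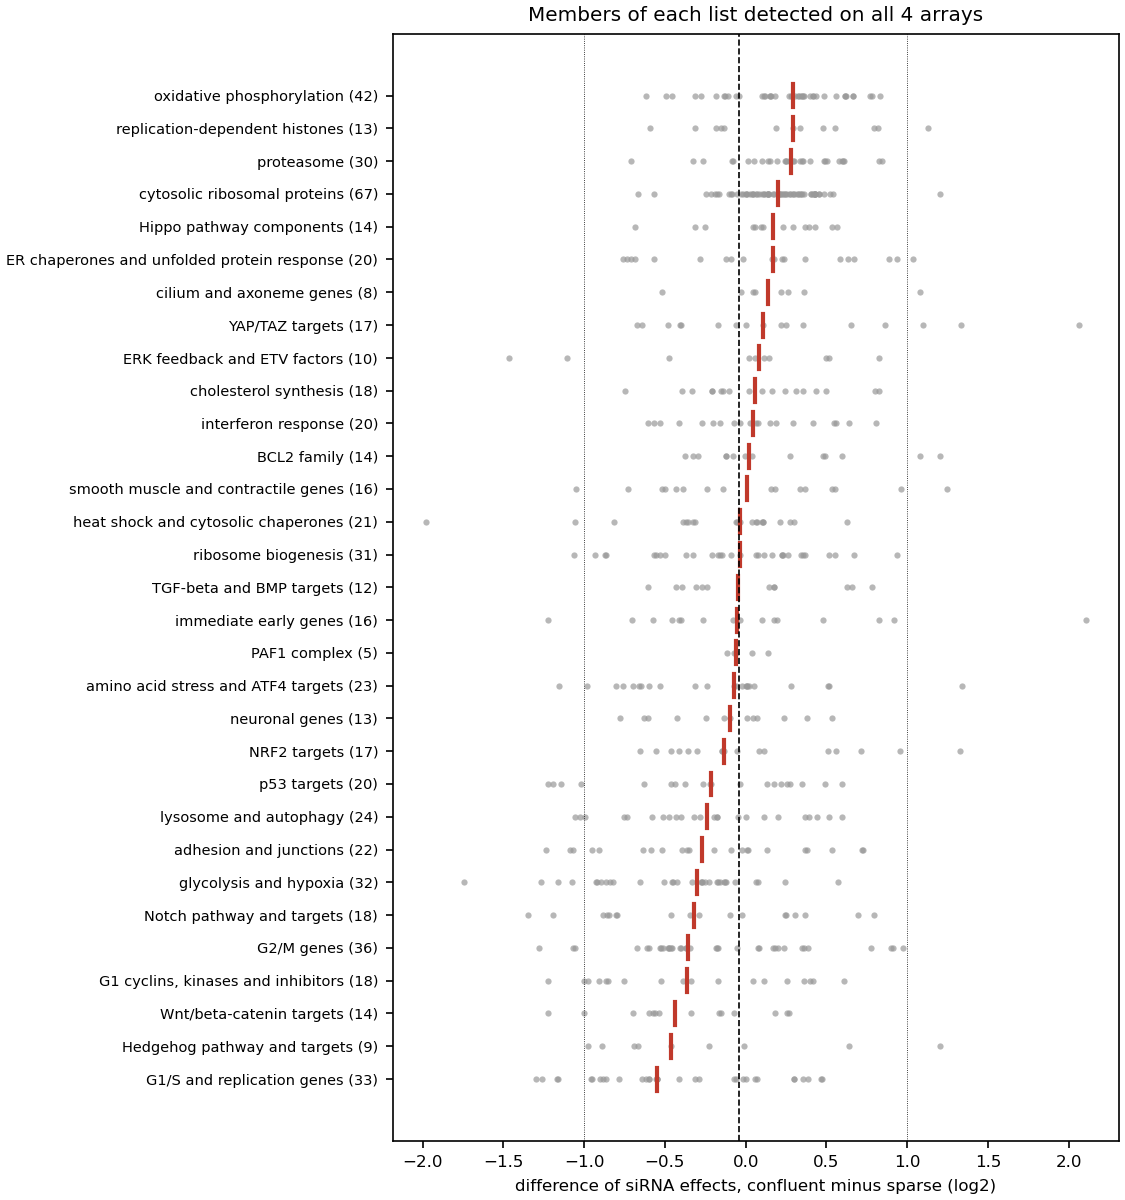
Difference of siRNA effects (log2, confluent minus sparse) of the measured members of each gene list, 1 point per gene, with the median of each list as a bar, the median of all 9047 genes, -0.04, as a dashed line and the 2-fold limits as dotted lines. Lists are ordered by their median, from oxidative phosphorylation and histones at 0.29 down to G1/S and replication genes at -0.55, and the ranges of member values overlap widely between lists.

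The difference of effects also went with the length of genes. Genes were split into 4 equal classes by the genomic span of their RefSeq annotation, and the median difference was 0.12 in the shortest class, -0.01 in the next, and -0.12 in each of the 2 longest. Of the shortest genes 59.0% lay above 0, and of the longest 39.5%. In the shortest class the median siRNA effect was 0.06 in confluent cells and -0.05 in sparse cells, and in the longest -0.02 in confluent cells and 0.10 in sparse cells. The Spearman correlation of length and difference was -0.17 over 9044 genes on the same arrays, a description across genes that are not independent. The GC content of promoters gave a similar gradient, with medians of 0.03 in the lowest of 4 classes and -0.14 in the highest and a correlation of -0.13 over 7505 genes, whereas the mean level of a gene gave -0.005.

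Length is therefore given beside the group values, and its part in them was not tested further. Ribosomal protein genes are short, with 59 of 67 in the shortest class, and after the median of each gene's length class was subtracted the list median was 0.09. The corresponding value was 0.22 for oxidative phosphorylation, 0.31 for the proteasome and 0.17 for histones, where 12 of 13 genes were in the shortest class. It was -0.49 for G1/S and replication genes, -0.35 for G2/M genes, -0.38 for glycolysis and hypoxia, 0.23 for the YAP and TAZ list and -0.07 for the interferon list, which had been at 0.05. This subtraction was chosen after the gradient had been seen.

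**Figure D4:**
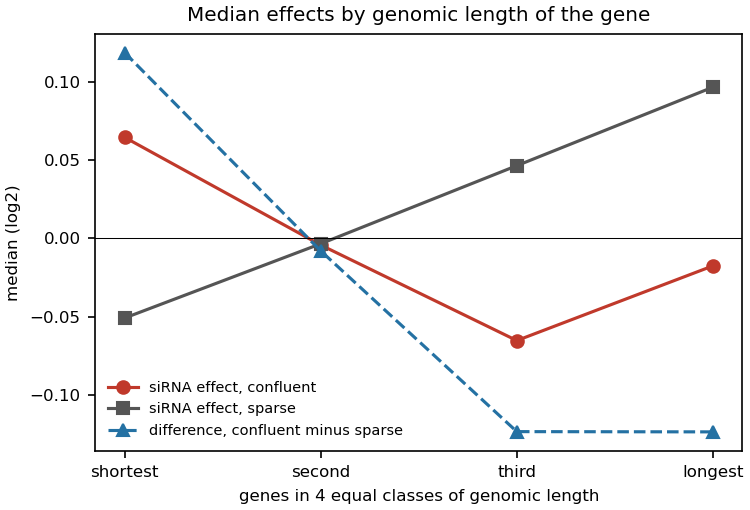
Median siRNA effect (log2) in confluent cells and in sparse cells, and median difference of effects, in 4 equal classes of genomic gene length from the shortest to the longest genes. Each point is the median of a class; the difference was 0.12 in the shortest class and -0.12 in the longest, small beside the SD of 0.52 over all genes.

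Genes that were not detected on all arrays could not be given a difference of effects of known size. Of 1716 such genes, 217 were detected in confluent cells with CDC73 siRNA alone, 178 in confluent controls alone, 192 in sparse cells with CDC73 siRNA alone and 24 in sparse controls alone. On all arrays but 1, the missing array was that of confluent cells with CDC73 siRNA for 118 genes, confluent controls for 54, sparse cells with CDC73 siRNA for 70 and sparse controls for 357, which is also the array with the smallest share of probes detected. CLCA2, a p53-inducible membrane protein, had the strongest signal among genes seen in confluent cells with CDC73 siRNA alone, at 265, which was 2.58 times the detection limit, against 92.6 in confluent controls, 103 in sparse cells with CDC73 siRNA and 80.1 in sparse controls. TNNC2, the stress protein NUPR1, GASK1B and KCNK6 followed. TMPO, a protein of the nuclear lamina, was under the limit in confluent cells with CDC73 siRNA alone, at 87.7, against 276 in confluent controls, 203 in sparse cells with CDC73 siRNA and 272 in sparse controls. SDC2, STT3B, LHX4 and GOLM2 had the same pattern.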

How the data were processed

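Per the labels' protocols, biotinylated cRNA made from total RNA was read on Illumina arrays. Per the file headers, the authors deposited non-normalized probe intensity values, which are linear, and a table of log2 values normalized between arrays. Neither gives detection p-values. The log2 table had a correlation with log2 intensity of 0.998 to 1.000, which settles its scale. What software made them is not given in the sources used here.

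Of 48803 probes with values, the platform annotation gave 28098 a single symbol, 13 several and 20692 none. Symbols were updated through Entrez numbers to RefSeq, GRCh38.p14. The signals of 452 olfactory receptor probes served as a negative panel and were left out of the gene results. A probe was detected when under 0.01 of the panel reached its signal, which set the limit at 103 to 123. Background was corrected by limma's normexp with that panel, an offset of 16 was added, and arrays were quantile normalized and put on log2 (limma 3.58.1, R 4.3.3, Python 3.11.15). A gene took its brightest named probe. The limit of 2-fold is 1 on the log2 scale. The number of arrays limits the precision, and the scripts were tested on simulated data.

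Genes named are CDC73, the 15 largest differences in each direction, the 5 largest of each pattern of effects, up to 4 members of each list by size of difference and 5 genes of each exclusive pattern of detection. Other members are named to show the range of a list, after their values were seen. The 36 lists and all members were chosen with earlier results of these data known. The 10 alternatives concerned background, offset, scaling, table, detection, probes and the linear scale, and 3 more were added after seeing the data. List medians and gene values were compared over 10 settings.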

Additional observations from a re-analysis of the deposited data

Results flagged for a closer look

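Probes with no gene symbol in the annotation were not used for any gene. Of 1711 such probes detected on all 4 arrays, 89 had a difference of siRNA effects past 2-fold (5.20%), 63 positive and 26 negative, against 5.49% of named genes. Outliers among replicates were not sought, since each group had 1 array.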

How the results depend on the processing

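No paired analysis was possible because each of the 4 groups had 1 array, all numbered replicate 1, and a block would leave no degree of freedom; for the same reason no replicate could be left out. The counts of genes past 2-fold, given as positive and negative, were 209 and 288. They were 75 and 126 without correcting the background, 106 and 171 at an offset of 50, and 85 and 149 in the authors' log2 table. Scaling to the median of all probes gave 15 and 1479, and scaling to the median of detected genes, chosen after seeing the data, 314 and 206. Detection on at least 1 array gave 317 and 500 of 10763 genes, and no detection filter 365 and 538 of 18474. A mean log2 level of at least 8, also added, gave 113 and 164 of 6069. With background by maximum likelihood the counts were 140 and 208, with a detection p under 0.05 they were 242 and 377, and with the mean of a gene's probes 188 and 259, each within 1.5 times of those reported. All 209 positive and 288 negative genes that were measured kept their sign in these settings, except 1 positive gene with the mean of probes. On the linear scale 209 and 286 kept it. Scaling to the median of all probes, when the median of all genes was -0.47, turned 10 of the 13 pathway list medians above 0 to below 0; among these the histone list, with the largest reported median of them, went to -0.092, YAP and TAZ to -0.43, Hippo to -0.21, cilium to -0.41, ERK feedback to -0.37, cholesterol to -0.33 and interferon to -0.46. In the other settings 0 to 5 of the 31 list medians changed sign. No named gene past 2-fold changed sign. Among those genes, BCL2, BIK, DLC1, DNAJB9 and RFX3 passed 2-fold in the fewest settings, 5 of the 10. Of the list and gene values 1658 shifted by less than the probe SD of 0.375 and 240 by more. A further 1, the histone list scaled to the median of all probes, was counted apart as a reversal. The causes were not tested. Signal over background limits the dim genes, and variation between cultures was not measured.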
